A study of Mus musculus with 48 samples.

Results

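Cardiomyocytes of mitochondrial-nuclear exchange mice were compared with cardiomyocytes of wild-type C57 mice after sham surgery, across all genes. The comparison used the 3 libraries titled C57_MNX_sham (6659, 6695 and 6763) and the 3 titled C57_wt_sham (464, 467 and 491), which are 6 of the 48 RNA sequencing libraries of the series. They were chosen by their titles, with earlier results of these data known. The genotype tag of the exchange group reads MNX C3Hn:C57mt, a C3H nucleus with C57 mitochondria, whereas its title starts with C57. The title prefix is read here as the nucleus, so that the exchange mice would carry a C57 nucleus and C3H mitochondria, and this reading is in doubt for the mitochondria because gene counts do not show which mitochondrial genome a library holds. The wild-type group is tagged WT C57B6J. All 6 samples were taken on day 3 after sham surgery, left ventricular cells were released by collagenase perfusion, and no transgene, Cre or drug is named for either group. The labels do not say from which animals the libraries came beyond the numbers in the titles, so p-values measure only the spread between these libraries.

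In an exchange mouse the nuclear genome of an inbred strain is placed in an egg that holds the cytoplasm, and thus the mitochondrial DNA, of another strain. Mitochondrial DNA encodes a few subunits of the respiratory chain and of ATP synthase, together with the transfer and ribosomal RNAs of the organelle, while the nucleus encodes the remaining subunits and every mitochondrial ribosomal protein. Cardiomyocytes depend on oxidative phosphorylation for contraction, mostly with fatty acids as fuel. An exchange against its nuclear wild type asks which transcripts differ when the nucleus is shared and the mitochondrial genome is not.

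The nucleus of the exchange libraries was examined with 57 strain genes, chosen because C57 and C3H wild-type libraries of another set of 24 sham libraries (set B) did not overlap and differed by over 1.5 on the log2 scale. On a scale where C57 is 0 and C3H is 1, the median over these genes was 0.0292, 0.0331 and 0.0769 in the exchange libraries 6659, 6695 and 6763, against -0.0122, 0.00879 and 0.0514 in the wild-type libraries 464, 467 and 491. All 6 libraries thus lay at the C57 end, whatever the tag says. Olfml2b was the single strain gene whose mean in the exchange libraries lay nearer to C3H.

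Depth ran from 15.89 to 18.98 M counts in the exchange libraries and from 17.19 to 20.77 M in the wild-type libraries. The 6 most abundant features took 56.79% to 63.31% of the counts in the exchange libraries and 50.81% to 56.82% in the wild-type libraries. Exchange library 6763 stood apart in the first principal component, which held 59.2% of the variance and on which it lay at -42.9, against -13.9 to 29 for the other 5 libraries. The titles carry a code of L and a digit, whose meaning the labels do not state. It is L6, L1 and L8 in the exchange group and L2, L3 and L5 in wild type. No value is in common, so that this code and the group cannot be told apart. The defining transcripts of the labelled cell type were abundant, with Myh6, the alpha myosin heavy chain, at 20600 to 32600 CPM and Tnnt2, cardiac troponin T, at 2090 to 3460 CPM in the 6 libraries. CPM are counts relative to library size after TMM, a scaling that equalises the bulk of the genes between libraries.

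No gene passed an adjusted p of 0.05 in the exchange libraries against wild type with edgeR's quasi-likelihood test. Of 12977 genes tested 0% were called, and the lowest adjusted p was 0.595. At an unadjusted p under 0.05 there were 1064 genes (8.2%), of which 773 were higher (5.96%) and 291 lower (2.24%) in the exchange libraries. DESeq2 called 2 genes, both higher in the exchange libraries, and had 1032 at an unadjusted p under 0.05. Its calls were Scd1 and a transcript known only by a database identifier, each at an adjusted p of 0.0418. Every exchange library lay above every wild-type library for 790 genes (6.09%) and below for 488 genes (3.76%). The excess of higher genes depended on scaling and on libraries. With libraries scaled by total counts in place of TMM the median log2 fold change of all genes was -0.181, against -0.00479 with TMM, and 281 genes were higher and 1450 lower at an unadjusted p under 0.05. Without library 6763 the numbers were 236 higher and 222 lower, without wild-type library 464 they were 260 and 206, without wild-type library 467 they were 452 and 224, and without exchange library 6695 they were 1228 and 686. Without exchange library 6659 there were 859 higher and 468 lower, and without wild-type library 491 there were 1102 higher and 823 lower of 13213 tested. Higher genes outnumbered lower ones with each of the 6 libraries left out, and total-count scaling alone reversed this. All genes below are therefore described by their values, and none of them passed edgeR's test in this comparison.

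**Figure D1:**
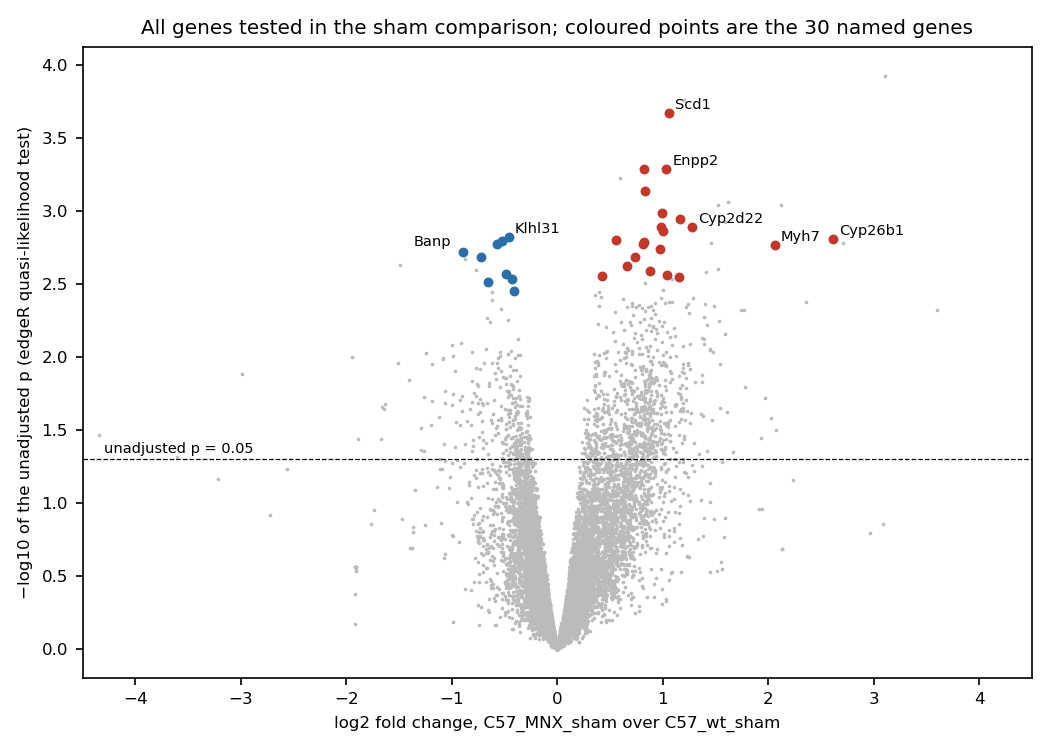
Each point is 1 of the 12977 genes tested, with its log2 fold change (C57_MNX_sham over C57_wt_sham) on the horizontal axis and the negative log10 of its unadjusted p on the vertical axis; the dashed line marks the unadjusted threshold of 0.05 and the coloured points are the 30 named genes. More points lie above the line on the right (773 genes) than on the left (291 genes), and none reached an adjusted p of 0.05 (lowest 0.595).

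The 30 genes described next had the smallest unadjusted p among genes whose mean log2 CPM was 1 or more and whose groups did not overlap. Of these, 21 were higher and 9 lower in the exchange libraries. Their p-values and non-overlap chose them and are given as description. Library 6763 was the highest exchange library for 16 of the 21 higher genes and the lowest for 5 of the 9 lower genes. Without it their median absolute log2 fold change was 0.69, against 0.82 with all 6 libraries.

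Scd1 and Enpp2 are described first, with 4 other higher genes whose products handle lipids, a grouping made after their values were seen. Scd1, the stearoyl-CoA desaturase that makes monounsaturated fatty acids, had 12.4, 9.77 and 14.4 CPM in the exchange libraries, against 4.74, 5.58 and 7.29 CPM in the wild-type libraries. The lowest exchange library was above the highest wild-type library, and the log2 fold change was 1.06 (SE 0.21, unadjusted p = 0.000212 in edgeR). Enpp2, the secreted lysophospholipase D that makes lysophosphatidic acid, had 8.47, 6.61 and 11.5 CPM in the exchange libraries, against 4.47, 3.83 and 4.75 CPM in wild type. Its log2 fold change was 1.03 (SE 0.225). Mylip, a ubiquitin ligase that targets the LDL receptor, had 10.9, 14.6 and 23.3 CPM in exchange libraries, against 7.24, 8.18 and 9.24 CPM in wild type. Library 6763 was the highest for Mylip, and without it the log2 fold change was 0.62, against 0.99 with it. Apoe, the apolipoprotein of remnant lipoproteins, had 34.6, 51.4 and 65.1 CPM in exchange libraries, against 26.4, 32.4 and 23.1 CPM in wild type. Acsl4, which activates arachidonic acid, was even across wild type, with 14.1, 12.7 and 15.3 CPM in exchange libraries, against 10.7, 10.5 and 10.4 CPM in wild type (log2 fold change 0.42). Gltp, which transfers glycolipids between membranes, averaged 7.02 ± 1.43 CPM in exchange libraries and 4.46 ± 0.602 CPM in wild type (SD, n = 3 each).

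The next higher genes encode receptors, secreted proteins and enzymes, and were likewise grouped after their values were seen. Npr3, the clearance receptor that removes natriuretic peptides, had 23.6, 14.7 and 24.4 CPM in exchange libraries, against 8.25, 11.8 and 11.3 CPM in wild type. The groups were separate, with a log2 fold change of 1.0 (SE 0.247). Its ligands overlapped between the groups: Nppa, atrial natriuretic peptide, had 17.8, 16.7 and 9.43 CPM in exchange libraries against 19.3, 40.9 and 11.5 CPM in wild type, and Nppb, its B-type relative, had 50.3, 66.4 and 49.8 CPM in exchange libraries against 62.6, 89.9 and 56 CPM in wild type. Cyp26b1, which degrades retinoic acid, had the largest log2 fold change of the 30 at 2.61 (SE 0.656). It stood at 11.8, 30 and 7.79 CPM in exchange libraries, against 3.51, 1.91 and 2.67 CPM in wild type, so that library 6695 was far above the others. Reln, the reelin ligand of lipoprotein receptors, averaged 5.85 ± 1.53 CPM in exchange libraries and 2.63 ± 0.675 CPM in wild type (SD, n = 3 each). Sema5a, a semaphorin guidance protein, averaged 7.8 ± 0.908 CPM in exchange libraries and 4.44 ± 1.39 CPM in wild type. Thbs2, the matricellular thrombospondin 2, averaged 23 ± 9.93 CPM in exchange libraries and 10.4 ± 3.92 CPM in wild type. C1s, a protease of the complement cascade, averaged 31.7 ± 11.3 CPM in exchange libraries and 15.5 ± 4.54 CPM in wild type. Mouse C1s has a near-identical copy, so its count is uncertain.

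Among the remaining higher genes Rnase4, a secreted ribonuclease, was even within the exchange group. It had 25.3, 26.1 and 25.9 CPM in exchange libraries, against 13.6, 16.3 and 16.5 CPM in wild type, and a log2 fold change of 0.74 (SE 0.193). Rnase4 shares its first exons with angiogenin, so reads of both loci may not be fully separated. Cyp2d22, a cytochrome P450, had 10, 9.98 and 22.3 CPM in exchange libraries, against 5.21, 5.47 and 6.83 CPM in wild type, and its log2 fold change was 1.28 with library 6763 and 0.77 without it. Anpep, aminopeptidase N, was also highest in library 6763, with 6.39, 5.82 and 11.4 CPM in exchange libraries against 3.57, 3.61 and 4.88 CPM in wild type. The other 3 were Vasn, a membrane protein that binds TGF-beta, Bicc1, an RNA-binding protein, and Ica1, a protein of secretory vesicles, with log2 fold changes of 0.82, 0.83 and 0.56.

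The 9 lower genes had smaller differences, between -0.41 and -0.89 on the log2 scale. Klhl31, a kelch protein of striated muscle, had 56.7, 48.5 and 45.4 CPM in exchange libraries, against 71, 64 and 72 CPM in wild type (log2 fold change -0.46, SE 0.115). Phkg1, the muscle catalytic subunit of phosphorylase kinase, which starts glycogen breakdown, had 12.1, 11.3 and 12.9 CPM in exchange libraries, against 19.5, 17.4 and 15.2 CPM in wild type. Slc25a33, which carries pyrimidine nucleotides into mitochondria, had 6.6, 7.54 and 7.4 CPM in exchange libraries, against 10.6, 9.78 and 11.6 CPM in wild type. In each of these the groups were separate by more than 1 CPM. Banp, a nuclear matrix protein, averaged 3.07 ± 0.505 CPM in exchange libraries and 5.73 ± 1.48 CPM in wild type (SD, n = 3 each). Ufd1l, a cofactor of the p97 ATPase in protein degradation, averaged 16.8 ± 0.845 CPM in exchange libraries and 22.6 ± 2.84 CPM in wild type. Mthfsd, Nipa1, a magnesium transporter, Nudt6 and Cdk18, a cyclin-dependent kinase, had log2 fold changes of -0.72, -0.49, -0.66 and -0.41. Nudt6 lies antisense to Fgf2 and the counting is not stated to use strand, so its reads may be shared.

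**Figure D2:**
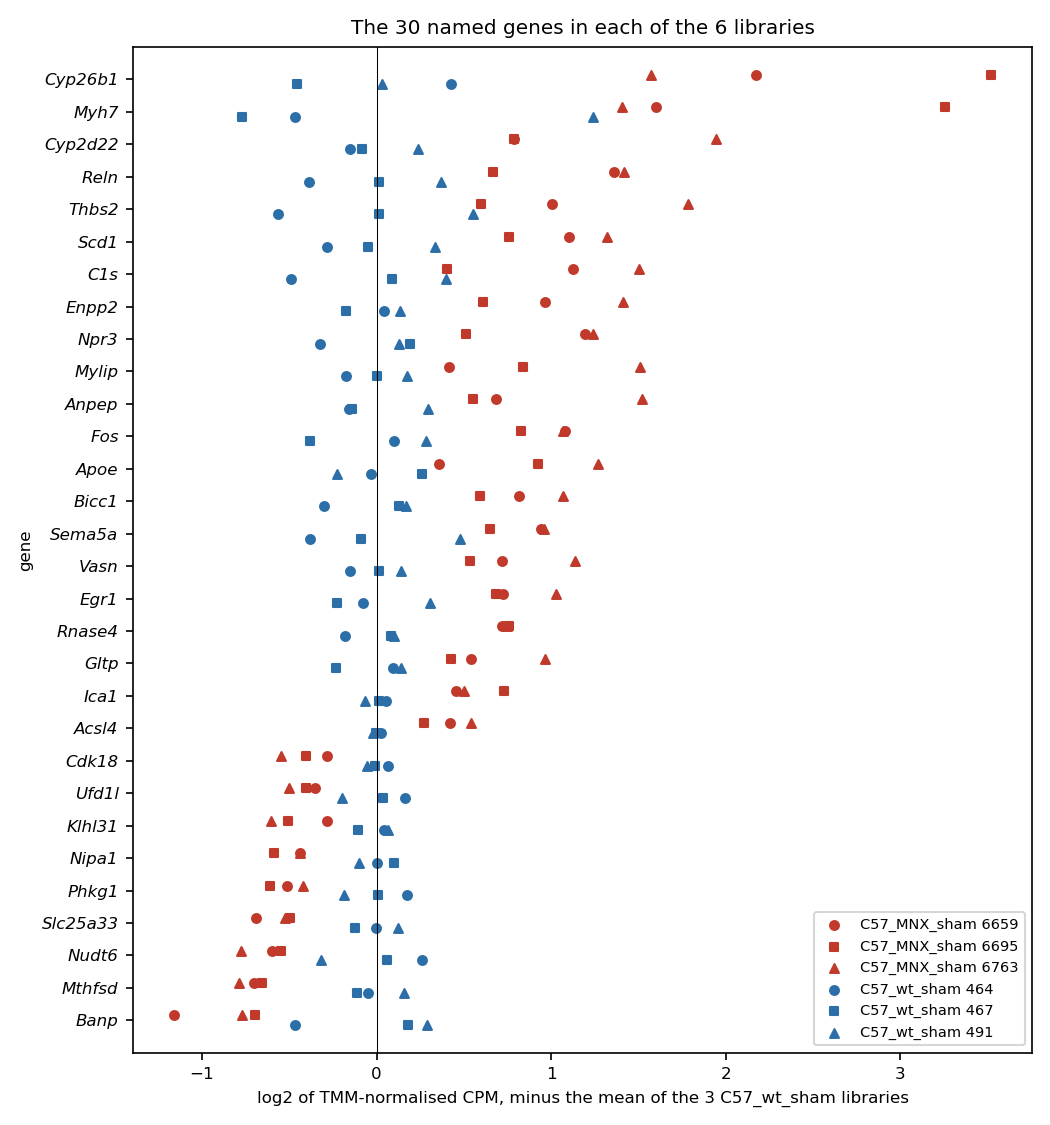
Each row is 1 of the 30 named genes and each symbol 1 library, placed by its log2 TMM-normalised CPM minus the mean of the wild-type libraries; exchange libraries are red and wild-type libraries blue. The groups do not overlap in any row because non-overlap was part of the rule, and Cyp26b1 and Myh7 show the widest scatter, with exchange library 6695 farthest to the right (30 and 288 CPM).

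Myh7, the slow beta myosin heavy chain that is the fetal isoform of the rodent ventricle, was among the 30. It is also 1 of the 57 strain genes. On the scale where C57 is 0 and C3H is 1 it averaged 0.35 in the exchange and -0.05 in the wild-type libraries. It had 91.4, 288 and 79.9 CPM in the exchange libraries, against 21.8, 17.7 and 71.1 CPM in the wild-type libraries, a log2 fold change of 2.06 (SE 0.524). Library 6695 stood far above the rest and wild-type library 491 came close to the lowest exchange library, so the size is poorly fixed: leaving out each library in turn gave 1.2 to 2.96. The adult isoform Myh6 was level, at 26200, 21200 and 20600 CPM in exchange libraries against 22600, 21900 and 32600 CPM in wild type (log2 fold change -0.18). Acta1, skeletal alpha actin and another fetal gene, was lower, at 95.9, 61.1 and 35.3 CPM in exchange libraries against 135, 210 and 57 CPM in wild type, with overlap (log2 fold change -1.06, unadjusted p = 0.0207 in edgeR). Over 22 cardiac stress and fetal genes tested, the median log2 fold change was -0.13, with 2 higher and 1 lower at an unadjusted p under 0.05. These shares were 9.09% and 4.55%, against 5.96% and 2.24% of all genes, and the counts are small. The higher ones were Myh7 and Myl9, a smooth muscle regulatory light chain, and the lower one was Acta1.

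Immediate early genes, which stimuli induce within minutes through kinases acting on factors bound at their promoters, had a mean level that separated the 6 libraries by group. Of 24 tested, 9 were higher at an unadjusted p under 0.05 and 0 were lower, against 5.96% and 2.24% of all genes, and 21 had a positive log2 fold change, with a median of 0.49. The mean level of the list was 2.96, 2.99 and 3.26 log2 CPM in the exchange libraries, against 2.55, 2.44 and 2.8 log2 CPM in the wild-type libraries. The lowest exchange library was above the highest wild-type library. Other lists also had separate means, such as inflammatory mediators (0.93 to 1.61 against 0.47 to 0.84 log2 CPM) and smooth muscle and pericyte markers. Potassium channels were separate with lower exchange means (3.66 to 3.77 against 3.81 to 3.88 log2 CPM). Fos, a subunit of the AP-1 factor, had 28.3, 23.8 and 28.1 CPM in exchange libraries, against 14.4, 10.3 and 16.3 CPM in wild type (log2 fold change 0.97, SE 0.249). Egr1, a zinc finger factor, had 57.8, 56.1 and 71.3 CPM in exchange libraries, against 33.1, 29.8 and 43.2 CPM in wild type (0.81, SE 0.204). Both were among the 30 named genes, and the list members that follow were picked after their values were seen. Fosb, a relative of Fos, had 5.07, 3.23 and 6.48 CPM in exchange libraries, against 2.5, 0.903 and 2.99 CPM in wild type. Nr4a1, an orphan nuclear receptor, had 32.3, 49.2 and 36.9 CPM in exchange libraries, against 28.3, 12.4 and 20.7 CPM in wild type. Atf3, a stress-induced bZIP factor, had 17.6, 18.7 and 22.9 CPM in exchange libraries, against 12, 7.28 and 14.1 CPM in wild type. For each of these 5 genes the lowest exchange library was above the highest wild-type library. Junb, Ier2, Klf4 and Nr4a3 made up the rest of the 9, with log2 fold changes of 0.65, 0.55, 0.71 and 0.81. Without library 6763 the median of the list was 0.26, with 5 higher and 0 lower, and with total-count scaling it was 0.32, with 7 higher.

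Promoter sequences are shown for the immediate early genes that stood together and share the letters of a cAMP response element, the site of the kinase-responsive factor CREB. The motif TGACGT was searched on both strands in the 250 bases before each start site in the RefSeq promoter table of build GRCm38.p6, matched by symbol. It was found for 3 of the 7 genes with an entry among the 9 higher ones, for 6 of 20 with an entry among the 24 tested, and for 7.29% of the 27025 genes of the table. A match describes these letters and is not a shown binding site. Each stretch below is written 5′ to 3′ on the strand of the gene, with the motif in capitals.
Fos, chr12:85473797-85473856, plus strand: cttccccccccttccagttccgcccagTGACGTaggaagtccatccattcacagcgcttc
Nr4a3, chr4:48045131-48045190, plus strand: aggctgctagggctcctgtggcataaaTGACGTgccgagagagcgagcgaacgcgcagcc
Atf3, chr1:191183334-191183368, minus strand: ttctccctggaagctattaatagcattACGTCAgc
The motif starts 66 bases before the start site in Fos, 147 in Nr4a3 and 8 in Atf3, where it reads on the opposite strand.

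Transcripts encoded by mitochondrial DNA were measured through Cytb, a subunit of complex III, Cox2, a subunit of complex IV, and Atpase6, a subunit of ATP synthase. Cytb had 136000, 111000 and 133000 CPM in the exchange libraries, against 90600, 107000 and 111000 CPM in the wild-type libraries. Cox2 had 84400, 67400 and 72700 CPM in exchange libraries, against 51700, 60900 and 59900 CPM in wild type. Atpase6 had 101000, 77800 and 92300 CPM in exchange libraries, against 63600, 73900 and 76700 CPM in wild type. For Cox2 and Atpase6 the lowest exchange library was above the highest wild-type library, and for Cytb the nearest libraries of the groups were almost level. The log2 fold changes were 0.30, 0.38 and 0.34, with unadjusted p = 0.127, 0.0599 and 0.0903 in edgeR. With DESeq2 all 3 were higher at an unadjusted p under 0.05. As a share of all counts, with no TMM factor, the differences were smaller: the 3 transcripts together took 24.4%, 22.4% and 24.8% in exchange libraries, against 20.3%, 21.9% and 22.1% in wild type. On that scale the sum and Cox2 stayed apart between the groups, the sum by less than the spread within a group. Cytb overlapped, at 9.7% in exchange library 6695 against 9.89% in wild-type library 491, as did Atpase6, at 6.81% against 6.86% in the same libraries, and the median log2 fold change of the 3 was then 0.16. Nuclear copies of mitochondrial genes can share their reads, which makes these values uncertain.

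The nuclear genes of oxidative phosphorylation did not follow the mitochondrial transcripts in sign. All 41 complex I genes had a negative log2 fold change, with a median of -0.24, and 0 of them reached an unadjusted p under 0.05. Their mean level was 6.31, 6.77 and 5.79 log2 CPM in the exchange libraries, against 6.9, 6.77 and 5.85 log2 CPM in the wild-type libraries, so the groups overlapped and 1 library of each was low (6763 and 491). Without library 6763 the median was -0.0016 for complex I, -0.013 for complexes II to V and -0.055 for mitochondrial ribosomal proteins. Genes of complexes II to V gave a median of -0.23 over 41 genes, of which 40 were negative and 0 reached an unadjusted p under 0.05. Mitochondrial ribosomal proteins gave -0.23 over 76 genes, with 0 higher and 2 lower, Mrpl3 and Mrps10. That share, 2.63%, is near the 2.24% of all genes. Without wild-type library 491 the same lists had medians of -0.51 for complex I and -0.45 for ribosomal proteins, with 18 of 41 and 37 of 76 lower at an unadjusted p under 0.05, beside 823 lower of the 13213 genes tested in that fit. The sign was also negative with total-count scaling, at -0.41 for each of the 3 lists. Nnt, the proton-translocating transhydrogenase of the inner membrane, for which C57BL/6J is known to carry a deletion, had 365, 421 and 253 CPM in exchange libraries, against 393, 340 and 354 CPM in wild type (log2 fold change -0.07). A gene-level count does not show that deletion.

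Fuel genes lay on the same side. The median log2 fold change was -0.24 over 24 genes of the TCA cycle, branched-chain and ketone oxidation, -0.24 over 29 glycolytic genes and -0.2 over 32 genes of fatty acid uptake and oxidation. Without library 6763 these medians were -0.05, -0.079 and -0.015. In the fatty acid list Cpt2, the inner membrane carnitine palmitoyltransferase, was the single gene at an unadjusted p under 0.05, with 107, 104 and 62.1 CPM in exchange libraries against 147, 143 and 94.9 CPM in wild type, and the groups overlapped. Among 23 genes of mitochondrial DNA upkeep and biogenesis the single one was Ppargc1b, a coactivator of mitochondrial biogenesis, with 9.65, 10.9 and 7.07 CPM in exchange libraries against 12, 11.5 and 18 CPM in wild type (log2 fold change -0.58). Among 17 genes of mitochondrial dynamics it was Letm1, an inner membrane ion exchanger, at 62.9, 60.3 and 44.3 CPM in exchange libraries against 70.9, 69.6 and 64.8 CPM in wild type. The mitochondrial and integrated stress response list had 1 higher and 2 lower of 22 genes (4.55% and 9.09%, against 5.96% and 2.24% of all genes), counts too small to set it apart. Asns, asparagine synthetase, was higher (log2 fold change 0.83, with overlap), and Shmt2 and Aldh1l2, enzymes of mitochondrial folate metabolism, were lower (-0.26 and -0.56, without overlap). Antioxidant and NRF2 target genes, 32 in number, had 0 higher and 0 lower and a median of -0.1.

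Contractile and excitability genes had medians between -0.12 and -0.23. Over 26 adult sarcomere genes it was -0.23 (-0.06 without library 6763), with 0 higher and 1 lower, Actc1, cardiac alpha actin, at 4830, 4190 and 2570 CPM in exchange libraries against 6310, 6100 and 4240 CPM in wild type. Over 24 calcium and sodium channel and calcium handling genes it was -0.14, with 1 higher and 3 lower. The higher gene was Sri, sorcin, which tunes the ryanodine receptor, at 17.6, 18.4 and 22.4 CPM in exchange libraries against 14.2, 15.4 and 13.4 CPM in wild type, without overlap. Cacnb2, a subunit of the L-type calcium channel, had 51.4, 57.9 and 39.2 CPM in exchange libraries against 62, 67.2 and 76.5 CPM in wild type, also without overlap (log2 fold change -0.47). Camk2a, a calcium-activated kinase, and Casq1, skeletal calsequestrin, were the other lower ones at -0.29 and -0.97. Over 22 potassium channel genes the median was -0.12, with 1 lower, Kcnj14. The shares lower were 3.85%, 12.5% and 4.55% for the sarcomere, calcium handling and potassium channel lists, against 2.24% of all genes. The share higher was 4.17% for calcium handling, against 5.96% of all genes, and all these counts are small.

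The lists of immune recognition, inflammation and matrix had positive medians, and exchange library 6763 had the highest mean level of all 6 libraries in each of these lists. Antigen presentation had a median log2 fold change of 0.82 over 22 genes, all positive, with 9 higher and 0 lower at an unadjusted p under 0.05, against 5.96% higher and 2.24% lower of all genes. H2-D1, a class I molecule, had 65.9, 82.2 and 139 CPM in exchange libraries against 38.2, 50.3 and 52.2 CPM in wild type, and Tap2, a peptide transporter, had 22.5, 22.1 and 32.7 CPM in exchange libraries against 13.2, 17.1 and 17.4 CPM in wild type. Neither gene overlapped between the groups, though class I genes have near-identical copies that can share reads. Without library 6763 the median was 0.47, with 2 higher. Interferon response genes had a median of 0.53 over 30 genes with 2 higher, Gbp2 and Ifih1, and 0 lower. That share, 6.67%, is near the 5.96% of all genes, and without library 6763 0 were higher and 0 lower. The count depended on the fit. With only the 6 libraries 9 of 28 were higher, beside 550 of 12330 genes, and with 24 libraries 0 of 30, beside 180 of 13440. For 8 of the 30 every exchange library lay above every wild-type library, against 6.09% of all genes, and for 0 below, against 3.76%. Inflammatory mediators had a median of 0.56 over 22 genes with 6 higher and 0 lower, and 1 higher without library 6763. Extracellular matrix genes had a median of 0.42 over 36 genes with 8 higher and 0 lower, among them Dcn, decorin, at 178, 197 and 290 CPM in exchange libraries against 111, 159 and 132 CPM in wild type. Without library 6763 that list had a median of 0.05 with 2 higher.

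Endothelial, fibroblast, smooth muscle and macrophage markers had positive medians as well. Their counts stand beside 5.96% higher and 2.24% lower of all genes, and beside 236 higher of 13182 tested without library 6763. Endothelial markers averaged 5.72, 5.52 and 6.81 log2 CPM in the exchange libraries 6659, 6695 and 6763, against 4.97, 5.42 and 5.52 log2 CPM in the wild-type libraries 464, 467 and 491. Of 12 markers 8 were higher and 0 lower at an unadjusted p under 0.05, among them Tek, the angiopoietin receptor, at 43.3, 43.2 and 95.2 CPM in exchange libraries against 25.3, 30.2 and 34.6 CPM in wild type. Without library 6763 0 of 12 were, and the median log2 fold change was 0.28, against 0.84. Fibroblast markers averaged 4.55, 4.28 and 5.17 log2 CPM in exchange libraries against 3.77, 4.41 and 4.37 log2 CPM in wild type, with 5 of 11 higher (3 without library 6763). Smooth muscle and pericyte markers averaged 4.42, 4.45 and 4.83 log2 CPM in exchange libraries against 3.98, 4.24 and 4.14 log2 CPM in wild type, with 5 of 9 higher (2 without library 6763) and no overlap of these means. Acta2 and Des of this list had negative log2 fold changes, -0.45 and -0.14. The summed CPM of the list overlapped, at 1016, 1144 and 1071 in exchange libraries against 1078, 1099 and 931.1 in wild type. Macrophage markers averaged 2.23, 2.46 and 3.01 log2 CPM in exchange libraries against 2.05, 2.45 and 2.24 log2 CPM in wild type, with 3 of 10 higher (1 without library 6763). Neutrophil markers had a median log2 fold change of -0.18 over 3 genes, and the single adipocyte or Schwann cell marker tested had -0.1. Erythrocyte markers had 0.94 over 4 genes with all libraries and -0.715 without library 6763. Cardiomyocyte markers averaged 11.75, 11.85 and 11.28 log2 CPM in exchange libraries against 12.02, 11.96 and 11.66 log2 CPM in wild type, with a negative log2 fold change for all 12. Lymphocyte markers were at or near 0 (Cd3e 0 to 1 counts a library), as were the neutrophil granule genes Mpo (0 to 2) and Elane (0 to 1), and the atrial marker Bmp10 and the adipocyte marker Plin1 had 0 counts. Fewer cells of a type and less RNA per cell cannot be told apart in such bulk samples. The part of these cells in the values of Thbs2, C1s, Anpep, Apoe, Enpp2 and the immune, matrix and metabolic lists was not tested.

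**Figure D3:**
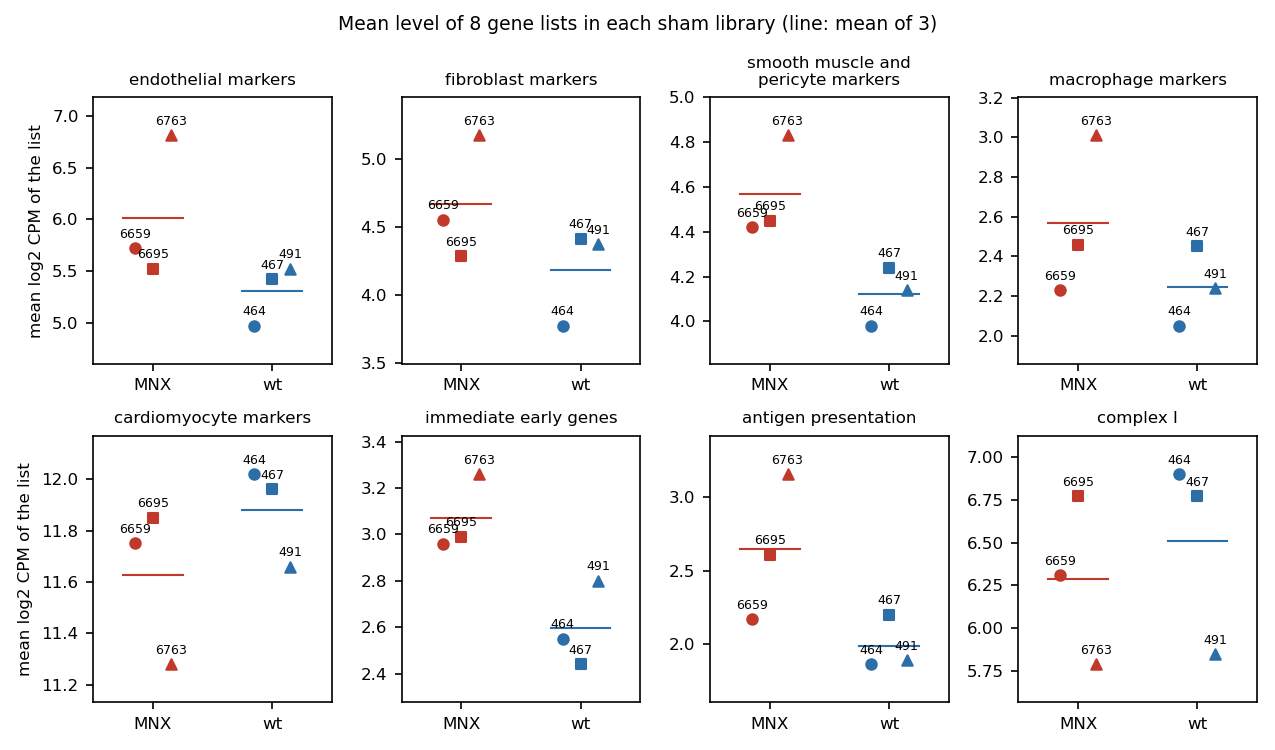
Each panel gives the mean log2 CPM of a gene list in each library, exchange (red) left of wild type (blue), with the library number beside each point and a line at the mean of 3; the vertical axes differ between panels and do not start at 0. Library 6763 is the highest for endothelial, fibroblast, smooth muscle and macrophage markers and the lowest for cardiomyocyte markers. The groups are separate for the immediate early genes (2.96 to 3.26 against 2.44 to 2.8) and for smooth muscle and pericyte markers (4.42 to 4.83 against 3.98 to 4.24).

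Medians near 0 were found for the circadian clock (median log2 fold change 0.1), glucocorticoid-induced genes (0.06), heat shock and endoplasmic reticulum chaperones (0.06) and the cell cycle (0.06). With total-count scaling, which moved the median of all genes to -0.181, these medians were negative, at -0.088, -0.12, -0.11 and -0.11. At an unadjusted p under 0.05 in edgeR the clock had 1 higher and 0 lower of 19, and glucocorticoid-induced genes 2 and 1 of 18. Chaperones had 0 and 2 of 29 and the cell cycle 1 and 1 of 17. These small counts stand beside 5.96% higher and 2.24% lower of all genes. Besides the genes below they were Cry1, Sgk1, Hspb6, Top2a and Cdkn1c, with log2 fold changes of 0.47, 0.64, -0.62, -1.2 and 0.88. Zbtb16, a glucocorticoid-induced zinc finger factor, had 16.5, 20 and 39.3 CPM in exchange libraries against 23.1, 52.6 and 66.4 CPM in wild type, whereas Fkbp5, a chaperone of the glucocorticoid receptor, had 4.37, 7.83 and 14.1 CPM in exchange libraries against 4.36, 5.47 and 6.05 CPM in wild type. Both overlapped between the groups. Bag3, a cochaperone that maintains the Z-disc, had 103, 110 and 93.6 CPM in exchange libraries against 135, 126 and 116 CPM in wild type, without overlap (log2 fold change -0.29).

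**Figure D4:**
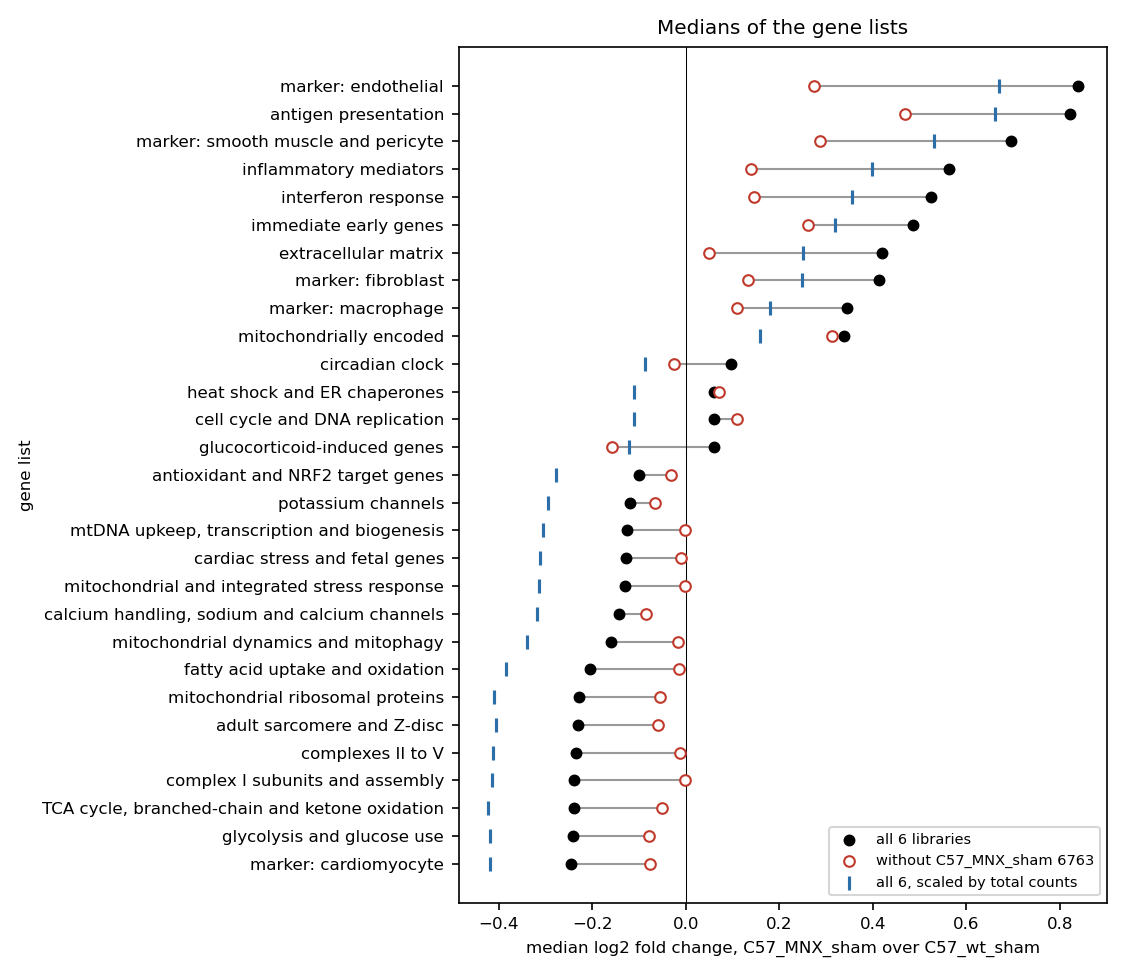
Rows are gene lists and the horizontal axis is the median log2 fold change of their genes (C57_MNX_sham over C57_wt_sham), as filled points with all 6 libraries, open points without exchange library 6763 and ticks with scaling by total counts. Without library 6763 most medians lie nearer to 0, with 0.28 against 0.84 for endothelial markers, while the mitochondrially encoded transcripts keep theirs (0.31 against 0.34).

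The same stocks were also measured after ACF surgery, a volume overload, and a second set of 24 sham libraries (set B) held C57n-C3Hmt mice with their own C57 wild type. Neither shares a library with the sham pair of set A, nor does the C3H sham pair, in which the mitochondrial swap runs the other way. In the ACF pair 1 wild-type library, 489, stood apart, with erythrocyte markers at 8.99 log2 CPM against a median of 0.17 in its group and cardiomyocyte markers at 9 against 11.87. Results are given with and without library 489, and without it the wild-type group holds only libraries 465 and 490. Without it 0 of 13544 genes were called in edgeR (0%), with 876 at an unadjusted p under 0.05 (6.47%), and 29 of the 30 named genes had the sign of the sham pair, against 70.1% of all genes tested in both. With it 8 of the 30 had that sign, against 36.7% of all genes, and 0 of 13440 genes were called in edgeR, with 1069 at an unadjusted p under 0.05 (7.95%) and 3 called by DESeq2. The difference between the sham and the ACF pair was called for 0 genes either way in edgeR, with 774 at an unadjusted p under 0.05 (5.76%), or 227 (1.68%) without library 489, and DESeq2 called 0 with all libraries.

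Values of single genes follow, chosen after they were seen. Acsl4 had a log2 fold change of 0.49 in the ACF pair without library 489 (unadjusted p = 0.000649 in edgeR), against 0.42 in the sham pair. Slc25a33 stood at -0.47 (unadjusted p = 0.00728), against -0.57 in the sham pair. Rnase4 stood at 0.92 (unadjusted p = 0.00996), against 0.74. Scd1 stood at 0.86 (unadjusted p = 0.0602), against 1.06. Myh7 went the other way, at -1.4 (unadjusted p = 0.0325), against 2.06, and was the single named gene with an opposite sign. With library 489 these 5 genes stood at -0.12 (Acsl4), -0.06 (Slc25a33), -0.46 (Rnase4), -0.91 (Scd1) and -0.91 (Myh7). Endothelial and fibroblast markers had medians of 0.72 and 0.74 without library 489, and -0.19 and -0.64 with it. The immediate early genes had a median of -0.23 without library 489 and -0.93 with it.

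In set B, C57n-C3Hmt over C57 WT had 0 of 13395 genes called in edgeR (0%), 1509 at an unadjusted p under 0.05 (11.3%) and 15 called by DESeq2. All C57 WT libraries of this pair carry the title code L8, and the C57n-C3Hmt libraries L2 or L8, so code and group are partly confounded here too. Of the 30 named genes 5 had the sign of the set A sham pair, against 38.3% of all genes tested in both. Cyp26b1 and Myh7 were alike in both sets, with log2 fold changes of 2.04 and 0.64 in set B (unadjusted p = 0.00133 and 0.00261). Rnase4 and Apoe were opposite, at -1.02 and -0.68 (unadjusted p = 0.000375 and 0.00321 in edgeR). At an unadjusted p under 0.05 in set B, 2 of the 30 named genes had the same sign and 5 the opposite sign. Extracellular matrix genes had a median of -0.42 in set B with 1 higher and 12 lower, against 4.55% higher and 6.72% lower of all genes. Interferon response genes had a median of -0.47 with 0 higher and 13 lower. Immediate early genes, which had a median of 0.49 in the set A sham pair, had -0.33 in set B with 1 higher and 5 lower. Macrophage markers had a median of -0.71 there and endothelial markers -0.33, so these markers of other cells also had the opposite sign. A test of the difference between the set A sham pair and the set B pair called 1 of 13869 genes in edgeR (0.00721%), Inmt, with 2216 at an unadjusted p under 0.05 (16%). That count was 139 without exchange library 6695, 23 without wild-type library 491 and 14 without exchange library 6659, and DESeq2 called 112 genes with all libraries.

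The mitochondrial transcripts had a positive log2 fold change in each comparison that the titles read as C3H over C57 mitochondria on a C57 nucleus. In set B Cytb, Cox2 and Atpase6 stood at 0.97, 0.85 and 0.95 (unadjusted p = 0.00354, 0.00771 and 0.00643 in edgeR). In the ACF pair without library 489 they stood at 0.74, 0.83 and 0.99 (unadjusted p = 0.018, 0.00365 and 0.00188), and with it at 0.31, 0.5 and 0.6 (unadjusted p = 0.457, 0.183 and 0.143). In the C3H sham pair, they stood at -0.25, -0.19 and -0.2 (unadjusted p = 0.211, 0.327 and 0.301). Together they took a mean of 15.6% ± 3.57 of the counts in C57n-C3Hmt and 10.7% ± 1.4 in C57 WT of set B (SD, n = 6 each). The C57n-C3Hmt libraries ran from 12.9% to 20.8%, with a median of 13.6%, and the C57 WT libraries from 9.08% to 12.6%. In set A the mean was 23.9% ± 1.27 in the exchange and 21.4% ± 1.01 in the wild-type sham libraries (SD, n = 3 each). None of the 3 transcripts passed the adjusted threshold in any pair. In the ACF pair without library 489 the wild-type group held only libraries 465 and 490, with shares of 19.5% and 14.7%. Library 489 had 24.1%, and the exchange libraries 6658, 6692 and 6693 had 23.8%, 21.6% and 23.3%. The larger log2 fold changes without library 489 thus rest in part on the low share of library 490.

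The C3H sham pair had 3 of 12977 genes called in edgeR (0.0231%) and 381 at an unadjusted p under 0.05 (2.94%). DESeq2 called 13 there, among them the immediate early genes Atf3, Btg2, Dusp1 and Nr4a1. Of the 30 named genes 13 had the sign of the C57 sham pair, against 38.2% of all genes. Fos and Egr1 were alike, with log2 fold changes of 1.08 and 0.53 (unadjusted p = 0.00104 and 0.0221 in edgeR). The immediate early list had a median of 0.54 in the C3H pair with 12 higher and 0 lower, against 1.3% higher and 1.63% lower of all genes, where the C57 pair had 0.49 with 9 higher. The matrix, antigen presentation and endothelial lists were not alike, with medians of -0.04, -0.2 and -0.33. A test of the difference between the C57 and the C3H pair called 1 gene in edgeR, Zfp709, with 1064 at an unadjusted p under 0.05 (8.2%).

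**Figure D5:**
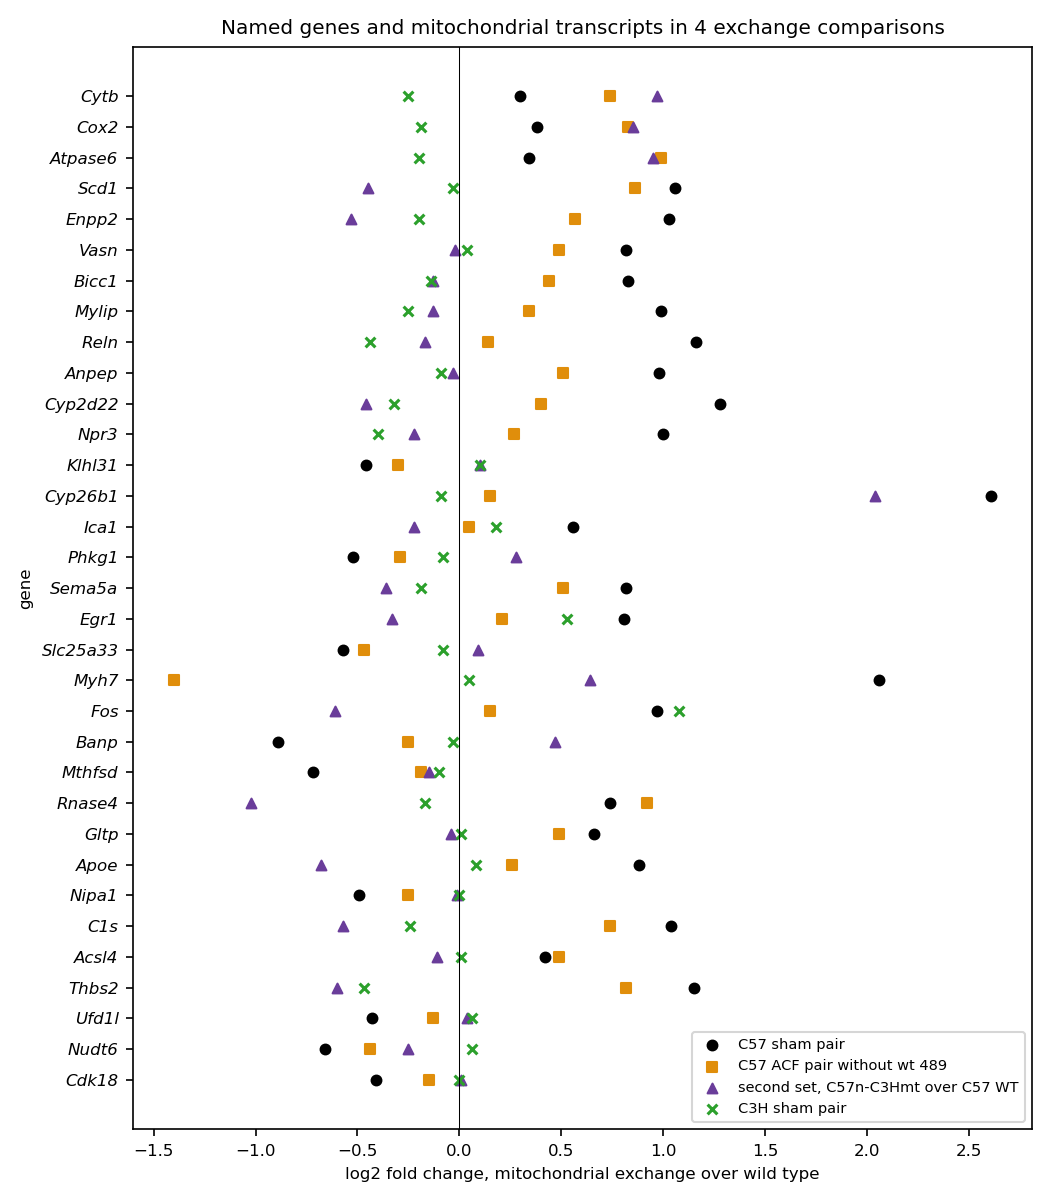
Rows are the 3 mitochondrial transcripts and the 30 named genes, and the horizontal axis is the log2 fold change of exchange over wild type in 4 comparisons: the C57 sham pair (black circles), the C57 ACF pair without wild-type library 489 (orange squares), set B (purple triangles) and the C3H sham pair (green crosses). Squares lie on the side of the circles for 29 of the 30 named genes and triangles for 5, and for the mitochondrial transcripts circles, squares and triangles are positive while the crosses are negative.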

How the data were processed

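Per the labels' protocols RNA of isolated cardiomyocytes was sequenced as stranded mRNA libraries. The table deposited by the authors holds each estimated count (RSEM expected count) per gene symbol, not normalised. Tools in the submitters' processing notes were RSEM 1.2.0, Bowtie and CASAVA 1.8.2 with build mm9, whereas the protocol names a provider's own mapping; which made the table is not given in the sources used here. Counts were rounded (13.9% of values were not whole) and tested in R 4.3.3 with edgeR 4.0.16 (quasi-likelihood F test, TMM, filterByExpr, group means over 12 sham libraries, 8 residual degrees of freedom, Benjamini-Hochberg, 0.05). The ACF pair and its difference from the sham pair used 24 libraries, and set B its own 24. The difference between the set A sham pair and the set B pair used 36. The standard error is the log2 fold change divided by the square root of F. Log2 CPM has a prior count of 2. DESeq2 1.42.0 was an alternative. Replicates of a group differed beyond sampling noise (chi-square per degree of freedom 11.03 or more). Named genes were to be those past the threshold with the largest change; as none passed, the 30 with the smallest unadjusted p, mean log2 CPM of 1 or more and separate groups were taken, predicted and clone symbols skipped. The mitochondrial transcripts, Acta1, Myh6, Myh7, Nnt, Nppa and Nppb were always named. Groups, genes and the 35 lists were chosen with earlier results of these data known. The code of the fit was checked on simulated counts, drawn independently for each gene with no shift shared by many genes of a library. That check does not show which differences could be detected in these data. Coordinates are given only for promoters, from RefSeq.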

Additional observations from a re-analysis of the deposited data

Results flagged for a closer look

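Zfp709, a zinc finger gene, differed between the exchange comparisons of the C57 and the C3H sham libraries. The log2 fold change of the C57 pair minus that of the C3H pair was -2.07 (SE 0.249, adjusted p = 0.0182 in edgeR). It had 2.22, 2.23 and 1.96 CPM in C57_MNX_sham and 2.5, 2.34 and 3.32 CPM in C57_wt_sham (log2 fold change -0.34), against 7.3, 6.8 and 6.86 CPM in C3H_MNX_sham and 1.98, 2.06 and 2.26 CPM in C3H_wt_sham (1.73, adjusted p = 0.00162). In set B it had 14.6 to 18.9 CPM in C3Hn-C57mt and 13.1 to 20 CPM in C3H WT. With 1 library left out at a time the call was lost in 10 of 12 fits, and held without wild-type libraries 467 and 491. The C57 sham libraries thus held it at an even low level, and the difference lay in the C3H libraries. Zfp709 is also 1 of the 57 strain genes, with 2.53 to 3.82 CPM in C57 WT of set B. C3H_wt_sham therefore lay near the C57 libraries for this gene and below C3H WT of set B. The reason was not tested.

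Inmt, a methyltransferase gene, differed between the sham pair of set A and the pair of set B. The difference of the log2 fold changes was 3.92 (SE 0.529, adjusted p = 0.000212 in edgeR). It had 0.764, 1.36 and 2.95 CPM in C57_MNX_sham against 0.16, 0.106 and 0.325 CPM in C57_wt_sham (log2 fold change 3.11, unadjusted p = 0.000118), and 0.837 to 2.41 CPM in C57n-C3Hmt against 2.37 to 3.72 CPM in C57 WT of set B (-0.79, unadjusted p = 0.000697). These levels are low, under the minimum set for named genes, and Inmt is given because it was the single gene edgeR called in that test, where DESeq2 called 112.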

How the results depend on the processing

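No paired analysis was possible because the replicate numbers in the titles name single libraries and none is shared between the groups. The count of genes called in the C57 sham comparison was 0 under every edgeR setting and 2 with DESeq2. The lowest adjusted p of any of the 30 named genes in edgeR was 0.164. Of the always-named genes Nnt turned positive without 6763, with log2 fold changes of -0.241 to 0.109 over the libraries left out, and Myh6 without 491, with -0.318 to 0.0281. The cause was not tested.

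Scaling by total counts, an alternative chosen after seeing the data, lowered the list medians, to 0.159 for mitochondrially encoded genes, -0.305 for mtDNA upkeep, -0.315 for the mitochondrial and integrated stress response, -0.42 for glycolysis, -0.311 for cardiac stress and fetal genes, -0.318 for calcium handling, -0.294 for potassium channels, -0.0879 for the clock, -0.111 for the cell cycle and -0.232 for the sex check genes.

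Leaving out 1 library at a time gave ranges of the list median of -0.203 to -0.00224 for the mitochondrial and integrated stress response, -0.257 to -0.0862 for calcium handling, -0.208 to -0.0659 for potassium channels, 0.261 to 0.53 for immediate early genes, 0.146 to 0.691 for interferon response, -0.157 to 0.289 for glucocorticoid-induced genes, 0.139 to 0.663 for inflammatory mediators, 0.275 to 1.05 for endothelial, 0.286 to 0.796 for smooth muscle, -0.549 to -0.00403 for neutrophil and -0.715 to 2.64 for erythrocyte markers. It gave 0 to 1 genes called for the C57 minus C3H difference, 0 to 24 for the ACF pair (0 without 489, 24 without 465 or 490), 1 to 139 for the set A minus set B difference, and 4 to 29 named genes of like sign in the ACF pair. DESeq2 called 3 genes in the ACF pair, 15 in set B and 112 for the set A minus set B difference. The nuclear background score kept within its spread under other definitions. Other list medians moved by less than the spread between libraries. With 3 libraries a group, differences below the spread between libraries were not detectable.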
